A study of Homo sapiens with 4 samples.

Results

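The cells described here are BT474 cells in which MYC transcripts were still detected after 4 h of fulvestrant, alone or with neratinib. BT474 is an established breast cancer line that expresses the estrogen receptor and carries extra copies of ERBB2, the HER2 gene. A cell was a barcode with at least 5000 UMIs (unique molecular identifiers, each standing for 1 captured transcript), at least 500 genes and at most 50% of UMIs from mitochondrial genes. Members had 2 or more MYC UMIs in the fulvestrant library or 1 or more in the library with both drugs, and are called MYC-positive cells below. They numbered 245 of 3394 cells with fulvestrant and 444 of 3800 cells with both drugs, which is 689 of 7194 in the 2 libraries, out of 14867 cells in the series. MYC itself chose these cells, so its values are a description with no test.

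The study profiled BT474 by droplet single-cell RNA sequencing in 4 groups, each treated for 4 h: the DMSO vehicle, 100 nM fulvestrant, 200 nM neratinib, and both drugs at those doses. Every group was 1 library, so no difference between drugs or between cells has a replicate check and no p-value is given. All intervals in square brackets are 95% intervals for counting error only. They treat UMIs as independent, and say nothing of the spread between cultures or of UMIs that sit together in a few cells.

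MYC is a transcription factor that drives ribosome production, nucleotide synthesis and entry into the cell cycle, and its transcript is short-lived. In estrogen-receptor-positive breast cancer cells it is a direct target of the receptor, and growth factor signalling through the HER2 and ERK pathways also feeds it. Fulvestrant binds the receptor and leads to its loss, and neratinib blocks the HER2-family kinases irreversibly.

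The 4 libraries were of like depth, with medians of 22202.5 to 23293 UMIs per cell. Epithelial and luminal genes were present in all of them, with ERBB2 between 908 and 1016 CPM (UMIs of the gene scaled to a common total of UMIs in all cells) and EPCAM between 221 and 310 CPM. Most markers of other cell types were at 0 in the MYC-positive cells. Immune markers summed to 4 UMIs in each of the 2 member sets, with 7 of the 8 genes, PTPRC and CD3E among them, at 0. Of 6 endothelial markers 4 were at 0, PECAM1 and CDH5 included, with sums of 18 and 22 UMIs. Of 8 fibroblast markers 7 were at 0, PDGFRA and COL1A2 included, and the other, COL1A1, had 80 and 111 UMIs. Basal and mesenchymal markers, 10 in number with KRT5, KRT14 and SNAI2 at 0, summed to 77.1 CPM in fulvestrant members and 54.0 CPM in MYC-zero cells, and to 68.9 and 64.4 CPM with both drugs. The part of these genes in the results was not tested. There were 22 cell barcodes that 2 libraries shared, on 44 cells, of which 1 was a member.

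MYC averaged 75.9 CPM [74.2, 77.6] over all DMSO cells and 15.7 CPM [14.8, 16.6] over all fulvestrant cells. The averages of the neratinib and both-drug cells were 60.8 CPM [59.1, 62.5] and 5.93 CPM [5.44, 6.46]. Within the members, MYC in single cells ran from 40.4 through a median of 90.6 to 545 CPM with fulvestrant, and from 17.5 through 45.1 to 193 CPM with both drugs. Summed over members the levels were 94.6 CPM and 46.8 CPM. The first of these lay above the average DMSO cell and the second below the average neratinib cell. Members were chosen by a minimum MYC count, which was lower with both drugs, while those averages hold all cells. Both orders thus depend on the rule that chose the members, and no conclusion is drawn from them. DMSO and neratinib cells with 2 or more MYC UMIs, picked by the same count, were at 131 and 133 CPM. The fulvestrant members were thus below cells chosen by the same count without fulvestrant.

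The number of MYC UMIs per cell fell away steadily, with no second peak that would set the members apart. With fulvestrant, 2479 cells had 0 MYC UMIs, 670 had 1, 165 had 2, 49 had 3, 17 had 4 and 14 had more, the highest being 9. With both drugs, 3356 cells had 0, 366 had 1, 65 had 2, 12 had 3 and 1 had 4. Just outside the fulvestrant threshold, cells with 1 MYC UMI were at 38.6 CPM of MYC, and those inside it with 2 made up most of the members. The label of cells that keep MYC therefore describes the upper end of a continuous range of counts, and the members are named by the rule. MYC averaged under 1 UMI per cell in both libraries, so a MYC-zero cell is one in which no MYC was captured, not a cell shown to lack it.

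**Figure D1:**
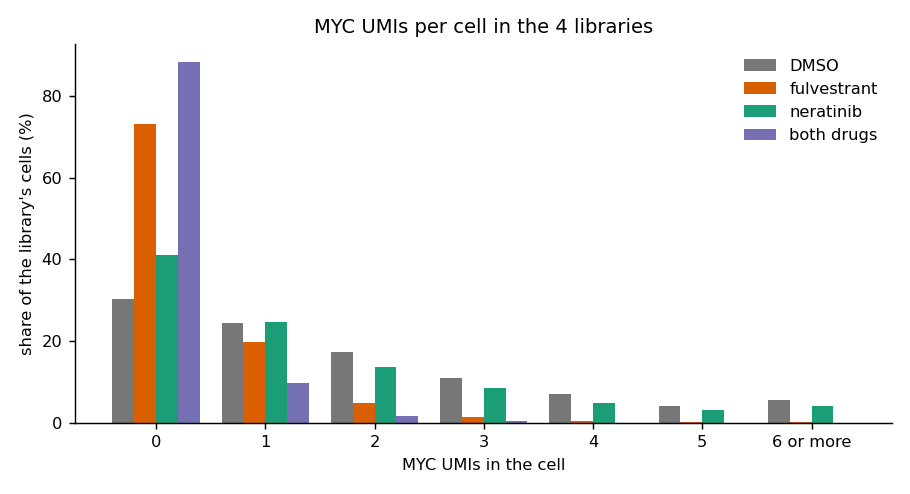
Share of each library's cells (vertical axis, percent) by the number of MYC UMIs in the cell (horizontal axis), 1 bar per library. Cells with 0 MYC UMIs make up 30.3% of DMSO and 73.0% of fulvestrant cells, and the shares fall from 0 to 5 MYC UMIs in every library. The last bar pools cells with 6 or more MYC UMIs, so it can stand above the bar before it.

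Members were 7.22% [6.37, 8.14] of fulvestrant cells and 11.7% [10.7, 12.7] of cells with both drugs. At the same 2 UMIs, the shares were 45.3% in DMSO, 34.2% with neratinib and 2.05% [1.63, 2.56] with both drugs. After every cell was thinned to 10000 UMIs, leaving out 149 and 164 shallower cells, members were 1.88% [1.44, 2.41] of fulvestrant cells and 5.36% [4.65, 6.15] of cells with both drugs. The thinned shares at 2 UMIs were 19.5% in DMSO and 14.3% with neratinib, so the order of the libraries was unchanged. The variance of the thinned MYC counts divided by their mean, which is 1 for pure counting noise, was 1.19 in fulvestrant cells, 1.09 in both-drug cells, 1.36 in DMSO cells and 1.88 in neratinib cells.

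A cell line holds no cell type that should lack MYC, so free RNA was read in barcodes with under 100 UMIs. There MYC stood at 15.9 CPM [12.5, 20.1] with fulvestrant and 5.82 CPM [3.93, 8.31] with both drugs, close to the cells' own averages. Those barcodes held on average 5.89 and 6.27 UMIs in all, with 72 MYC UMIs over 767339 barcodes and 30 over 822477. The part of free RNA in the members' MYC counts was not tested.

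Members were deeper than the MYC-zero cells of their library. With fulvestrant the median was 25732 UMIs in members and 22779 in MYC-zero cells, and with both drugs 24376 and 21907. With cells ranked by depth into 5 equal bins, the member share was 3.53% in the shallowest bin of fulvestrant cells and 9.57% in the deepest, against 7.24% and 15.4% with both drugs. Quality measures hardly differed. The median mitochondrial share was 16.6% in members and 16.7% in MYC-zero cells with fulvestrant, 20.9% and 21.0% with both drugs, and genes per cell at 10000 UMIs were 2833 against 2836 and 2660 against 2650.

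Cell cycle phase, scored from expression and not checked against DNA content, differed once depth was matched. S phase held 28.6% of fulvestrant members, 70 of 245, and 25.3% of MYC-zero cells at the members' depth. G2M held 20.4% [15.5, 26.0] of members and 29.5% of those MYC-zero cells. With both drugs S phase held 24.3% [20.4, 28.6] of members against 20.1%, and G2M 24.8% [20.8, 29.1] against 28.3%. G1 held 51.0% [44.6, 57.4] of fulvestrant members against 45.2%, and 50.9% [46.1, 55.6] against 51.7% with both drugs. Members of both libraries thus had more S and fewer G2M calls than MYC-zero cells of like depth, beyond the members' counting interval for G2M with fulvestrant and for S phase with both drugs. Free RNA enters phase calls too.

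To read other genes with allowance for depth and phase, the members' summed UMIs were set against the UMIs expected from MYC-zero cells of the same library, weighted to the members over 10 depth bins and 3 phases. Among 4950 genes with a mean of at least 20 CPM over the 4 libraries, those with a log2 ratio of at least 0.32 in size and an interval off 0 were counted as higher or lower. With fulvestrant 50 genes were higher, a percentage of 1.01, and 38 were lower (0.768%). With both drugs 31 were higher (0.626%) and 32 lower (0.646%). The median gene was at -0.02 and 0.00 on the log2 scale, near 0 as the scaling to a common total makes it.

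Genes higher in both libraries numbered 12 (0.242% of those measured), which is 24% of the fulvestrant list and 38.7% of the list with both drugs. They included AREG, DKK1, DDIT3, TNFRSF12A, RAB32, ANXA1, EGR1, TWIST1, PLK2, SLC7A5 and IFRD1. Genes lower in both numbered 5 (0.101%), 13.2% and 15.6% of the lists: MUCL1, KIF20A, NEK2, CENPE and SCGB2A2. NMB, which encodes the peptide neuromedin B, was the 1 gene with opposite calls, at 0.32 with fulvestrant and -0.36 with both drugs. No cell or library was common to these 2 comparisons. DMSO and neratinib cells were split in the same way, 2 or more MYC UMIs against 0. Of the 12 higher genes, 2 were called higher in DMSO too and 7 with neratinib. Of the 5 lower genes, 0 and 2 were called lower there. Over all genes 0.222% and 0.808% were higher in those splits, and 0.222% and 0.444% lower.

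AREG, which encodes the EGFR ligand amphiregulin, had the highest ratio pooled over the 2 libraries among the genes of at least 20 CPM, at 1.23 [1.10, 1.36], or 2.34-fold. With fulvestrant it stood at 76.5 CPM in MYC-positive cells and 31.5 CPM in weighted MYC-zero cells, a log2 ratio of 1.28 [1.12, 1.43]. With both drugs the levels were 17.1 and 7.97 CPM, a ratio of 1.10 [0.86, 1.35]. DMSO cells with 2 or more MYC UMIs were at 76.8 CPM, but 10 of the 245 fulvestrant members held 184 of the 508 AREG UMIs. With both drugs the members were below the average of all neratinib cells, 24.3 CPM. At equal depth of 10000 UMIs, AREG was detected in 25.8% [20.4, 31.8] of fulvestrant members and 18.1% of phase-weighted MYC-zero cells, and in 13.1% [10.1, 16.6] and 6.5% with both drugs.

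DKK1, a secreted WNT antagonist, was at 72.0 CPM in fulvestrant members and 30.1 CPM in their reference, a log2 ratio of 1.26 [1.10, 1.41]. With both drugs it was at 72.8 and 45.2 CPM, a ratio of 0.69 [0.58, 0.80]. DDIT3 encodes CHOP, a transcription factor of the stress response. It was at 95.8 against 50.8 CPM with fulvestrant, a ratio of 0.91 [0.78, 1.04], and at 51.8 against 30.2 CPM with both drugs, a ratio of 0.78 [0.64, 0.91]. TNFRSF12A, the receptor for the cytokine TWEAK, was higher by 0.68 [0.59, 0.77] and 0.76 [0.64, 0.88]. All 4 genes were also above 0 in the same split of DMSO and neratinib cells, AREG at 0.39 and 0.94, DKK1 at 0.73 and 0.52, DDIT3 at 0.19 and 0.28, and TNFRSF12A at 0.05 and 0.72. In DMSO, 27 of the MYC-positive cells were extreme cells of the kind described below, picked by lists that hold these genes. The other 1894 were at 24.6 CPM of DKK1, 44.9 of DDIT3, 129 of TNFRSF12A and 74.2 of AREG. MYC-zero DMSO cells were at 22.0, 42.7, 131 and 56.7 CPM, all without weighting for depth or phase.

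The next highest were RAB32, a small GTPase of organelle trafficking, at 0.51 [0.31, 0.70] and 0.53 [0.37, 0.69], and ANXA1, a phospholipid-binding annexin, at 0.63 [0.50, 0.76] and 0.44 [0.34, 0.54]. In the same split RAB32 was at -0.07 in DMSO and 0.48 with neratinib. At no more than 20% mitochondrial UMIs RAB32 was at 0.09 [-0.20, 0.38] with both drugs. EGR1, an immediate early transcription factor, was at 0.46 [0.33, 0.58] and 0.53 [0.11, 0.93], the latter at only 5.51 CPM in members, since the gene was low in both neratinib-treated libraries. PHLDA2, a small protein of the pleckstrin homology family, was called with fulvestrant at 0.53 [0.40, 0.67], but with both drugs it was at 0.08 [-0.27, 0.41]. TWIST1, a helix-loop-helix transcription factor, was at 0.40 and 0.43, and the amino acid transporter SLC7A5 at 0.39 and 0.37. PLK2, a kinase of the polo family, was at 0.37 and 0.50, and the transcriptional coregulator IFRD1 at 0.34 and 0.41.

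**Figure D2:**
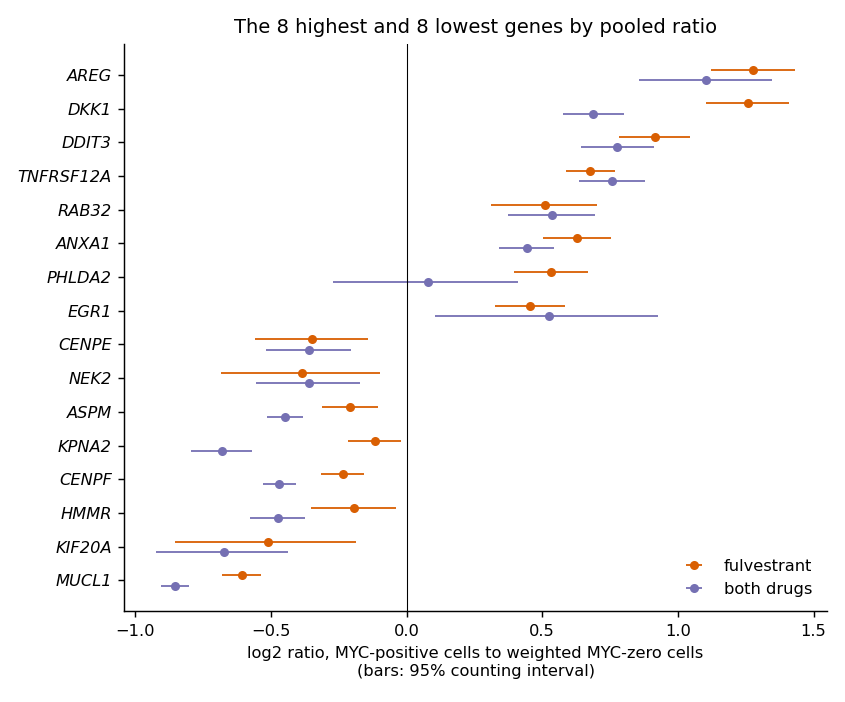
Log2 ratio of MYC-positive to weighted MYC-zero cells (horizontal axis) for the 8 highest and 8 lowest genes of at least 20 CPM by ratio pooled over the 2 libraries, with 95% counting intervals as bars. AREG is highest at 1.28 and 1.10, and MUCL1 lowest at -0.61 and -0.85 in the fulvestrant and both-drug libraries.

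Several of these genes also went with the number of MYC UMIs inside the member set and just outside it. DKK1 was at 29.5, 34.1, 59.6 and 95.1 CPM in fulvestrant cells with 0, 1, 2 and 3 or more MYC UMIs, and DDIT3 at 49.5, 59.3, 73.7 and 137 CPM. AREG was at 28.6, 44.9, 75.8 and 77.8 CPM. A few cells carry much of these levels: 1 cell with 2 MYC UMIs held 95 AREG and 91 DKK1 UMIs, 29.0% and 35.3% of that class, and 1 cell of the class with 3 or more held 26.8% of its DKK1 UMIs. Without the 34 extreme cells described below, of which 5 fell in each of these 2 classes, DKK1 was at 29.2, 30.9, 34.3 and 49.9 CPM and DDIT3 at 48.4, 52.5, 54.4 and 72.2 CPM. AREG was then at 28.3, 40.0, 53.9 [47.1, 61.4] and 43.6 CPM [35.3, 53.2], so its highest class was no longer the last. Cells with 1 MYC UMI, which belong to neither side of the comparison, lay between the MYC-zero cells and the members for all 3 genes. After weighting for depth and phase, their AREG ratio to MYC-zero cells was 0.57 [0.44, 0.70] and their DKK1 ratio 0.17 [0.03, 0.30]. With both drugs, cells with 2 or more MYC UMIs were at 93.9 CPM of DKK1 and 81.3 CPM of TNFRSF12A, and cells with 1 at 67.9 and 59.1 CPM. Without the 38 extreme cells of that library, DKK1 was at 41.5, 63.0 and 84.1 CPM in cells with 0, 1 and 2 or more MYC UMIs. TNFRSF12A was then at 36.5, 52.6 [48.0, 57.5] and 59.9 CPM [49.9, 71.5]. AREG was at 7.22, 15.7 [13.3, 18.5] and 12.1 CPM [7.82, 17.8], with no climb from 1 to 2 or more.

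**Figure D3:**
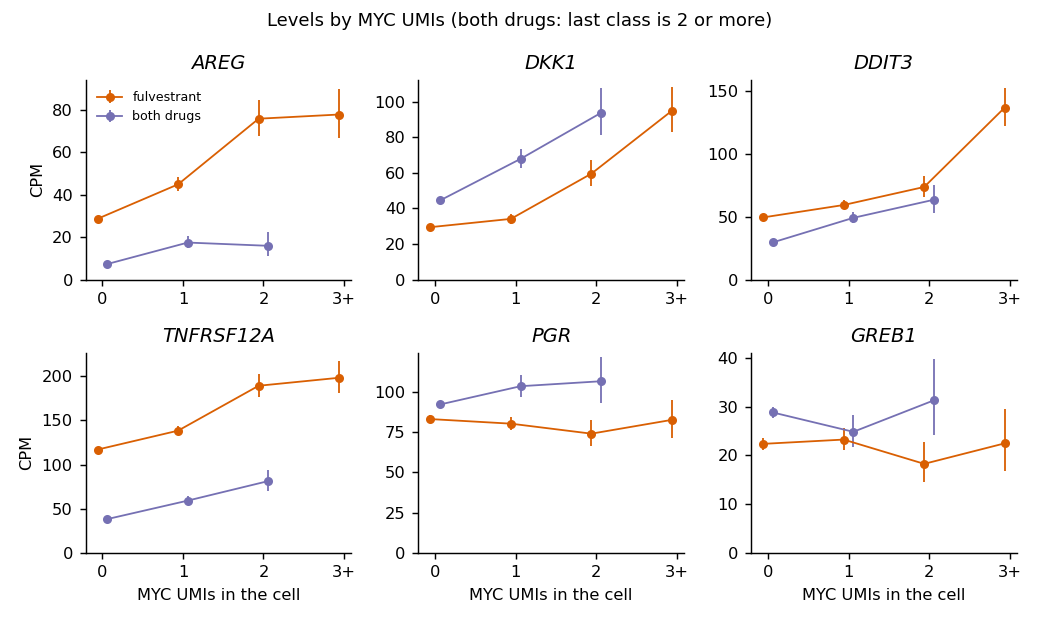
Level in CPM (vertical axes) of 6 genes by the number of MYC UMIs in the cell (horizontal axes), with exact 95% Poisson intervals, not weighted for depth or phase. DKK1 goes from 29.5 to 95.1 CPM in the fulvestrant library, and to 49.9 CPM without the 34 extreme cells, while PGR and GREB1 show no such climb, PGR being at 83.0 CPM in cells with 0 and 82.5 CPM in cells with 3 or more MYC UMIs.

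The higher levels were shared unevenly among members. With fulvestrant the 5 highest cells of each gene held 45.1% of the members' AREG UMIs, 54.0% of DKK1, 32.9% of DDIT3, 31.4% of ANXA1 and 26.6% of TNFRSF12A. With both drugs they held 21.9% of AREG, 19.5% of DKK1 and 29.7% of DDIT3. The most extreme fulvestrant member had 25592 UMIs, among them 2 of MYC, 95 of AREG, 91 of DKK1, 184 of TNFRSF12A and 100 of ANXA1, but 1 of TFF1, a secreted estrogen-regulated peptide that averages 1942 CPM in MYC-zero cells. A member with 97 DDIT3 UMIs of 41792 was the most extreme for that gene with both drugs. The average of a few cells and the typical member therefore differ for these genes.

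Such cells were then sought without the same library's ratios. In each library the 1% of cells with the largest share of UMIs in the genes higher in the other library were taken, by 31 genes for fulvestrant and 50 for both drugs. MYC was not among these genes, but its counts in the other library had chosen them, so MYC in these cells is a description. Of 34 such fulvestrant cells 10 were members, 29.4% [15.1, 47.5] against 7.22% of the library. MYC summed to 84.9 CPM in those 34 cells and 15.2 CPM in the rest. Of 38 such cells with both drugs 10 were members, 26.3% [13.4, 43.1] against 11.7%, with MYC at 20.7 and 5.82 CPM. Although MYC was higher in these cells, 28 of the 38 had no MYC UMI. The same was found without fulvestrant, by the 69 genes higher in either fulvestrant library. Of 43 such DMSO cells 27 had 2 or more MYC UMIs, 62.8% [46.7, 77.0] against 45.3% of the library, with MYC at 218 and 74.9 CPM. Of 35 such neratinib cells 19 did, 54.3% [36.6, 71.2] against 34.2%, with MYC at 181 and 59.8 CPM. By scored phase 26 of the 34 and 32 of the 38 were in G1.

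In the 34 fulvestrant cells DDIT3 averaged 708 CPM, AREG 481 CPM, ATF3 225 CPM and TNFRSF12A 1234 CPM, against 50.2, 32.4, 5.86 and 119 CPM in the other cells. DDIT3, AREG and TNFRSF12A were among the genes that picked the cells, so their levels there are high by construction. ATF3 and TFF1 were not among those genes. ATF3 is a stress-induced transcription factor, named here after its values were seen. TFF1 was lower there, at 599 CPM against 1953 CPM, and with both drugs at 1081 against 1733 CPM, while ERBB2 was at 865 against 1017 and at 1036 against 907 CPM. In the 43 DMSO cells DDIT3 was at 510 against 43.4 CPM and DKK1 at 949 against 23.4 CPM, again high by construction. ATF3 was at 259 against 5.08 CPM there and TFF1 at 710 against 2147 CPM. The cells picked in DMSO were thus also high in ATF3 and low in TFF1. Without the 1% of cells picked in each fulvestrant-treated library, a choice made after seeing the data, genes higher in both libraries went from 12 to 5. AREG was then at 0.68 with fulvestrant and 0.94 with both drugs, and DKK1 at 0.40 and 0.66. TNFRSF12A was at 0.17 and 0.57 without them, DDIT3 at 0.28 and 0.38, and ANXA1 at 0.09 and 0.40. RAB32 was at 0.20 [-0.02, 0.42] and 0.52, and EGR1 at 0.15 and 0.47. These cells were picked by lists that hold the same genes, which lowers the values by construction. The 235 fulvestrant members left were at 50.4 CPM [45.0, 56.2] of AREG, where the DMSO cells left with 2 or more MYC UMIs were at 74.2 CPM [71.9, 76.6]. When the 1% of members and of MYC-zero cells with most UMIs of a gene were left out for that gene alone, the fulvestrant ratios were 1.04 for AREG, 1.01 for DKK1, 0.72 for DDIT3, 0.43 for TNFRSF12A and 0.34 for ANXA1. All 5 then still passed the threshold.

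Few estrogen receptor targets were higher in the members. Of 24 measured targets 2 were higher and 0 lower with fulvestrant, AREG and PMAIP1, where 1.01% of all genes were higher, with a list median of 0.02 beside -0.02 for all genes. With both drugs 2 were higher, AREG and CCND1, and 0 lower, where 0.626% of all genes were higher, with a median of 0.05 beside 0.00. The shares called were thus above those of all genes, while 14 and 15 of the 24 targets lay above 0. The list was written with earlier results of these data known.

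PGR, the progesterone receptor and a classical target, was at 76.9 CPM in fulvestrant members and 81.1 CPM in weighted MYC-zero cells, a log2 ratio of -0.07 [-0.21, 0.06]. In all DMSO cells it was at 143 CPM. With both drugs PGR was at 104 against 92.7 CPM, a ratio of 0.17 [0.07, 0.26], and in all neratinib cells at 173 CPM. GREB1, a receptor cofactor, was at -0.19 [-0.46, 0.08] and -0.13 [-0.31, 0.04]. Neither gene passed the threshold of 0.32 in either library, in cells that had MYC.

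TSKU, which encodes a secreted proteoglycan, was at 17.9 CPM in fulvestrant members against 56.8 CPM in all DMSO cells, with a ratio to MYC-zero cells of 0.11 [-0.19, 0.39], and 0.21 [-0.12, 0.52] with both drugs. TFF1 was at -0.12 [-0.15, -0.10] and -0.07 [-0.09, -0.04]. CCND1, cyclin D1, was at 0.27 [0.20, 0.34] with fulvestrant and 0.46 [0.30, 0.60] with both drugs. PMAIP1, the apoptosis gene NOXA, was at 0.54 [0.28, 0.79] and 0.26 [-0.00, 0.51], and IGF1R at 0.28 [-0.01, 0.56] and -0.10 [-0.25, 0.06]. Below 20 CPM, and so outside the counts, RARA, the retinoic acid receptor alpha, was at 0.45 [0.11, 0.79] and 0.34 [-0.02, 0.68], and ESR1, the receptor gene, at -0.30 [-0.70, 0.08] and 0.17 [-0.09, 0.42].

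The same split of DMSO and neratinib cells, 2 or more MYC UMIs against 0, gave other values for the classical targets. PGR was at 0.48 [0.41, 0.55] in DMSO and 0.62 [0.56, 0.68] with neratinib, and GREB1 at 0.21 [0.09, 0.33] and 0.52 [0.41, 0.63]. The split in fulvestrant cells minus that in DMSO cells was -0.55 [-0.70, -0.40] for PGR and -0.40 [-0.69, -0.10] for GREB1, and both drugs minus neratinib was -0.46 [-0.57, -0.35] and -0.65 [-0.86, -0.44]. For AREG these differences were 0.89 [0.70, 1.07] and 0.16 [-0.13, 0.45]. PGR and GREB1 thus went with MYC more where fulvestrant was absent, in both pairs of libraries. With all cells kept, AREG went with MYC more with fulvestrant in 1 pair. Without the extreme 1% of cells AREG was at 0.68 [0.50, 0.86] with fulvestrant, where DMSO with all its cells was at 0.39. That choice of cells lowers AREG by construction. These intervals hold counting error only, the MYC-positive cells were 45.3% of DMSO and 34.2% of neratinib cells, and the threshold with both drugs was 1 UMI lower. Over the list, 3 targets were higher in DMSO, AREG, PGR and SIAH2, with a median of 0.11, and 11 with neratinib with a median of 0.20, where the percentages over all genes were 0.222 and 0.808.

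**Figure D4:**
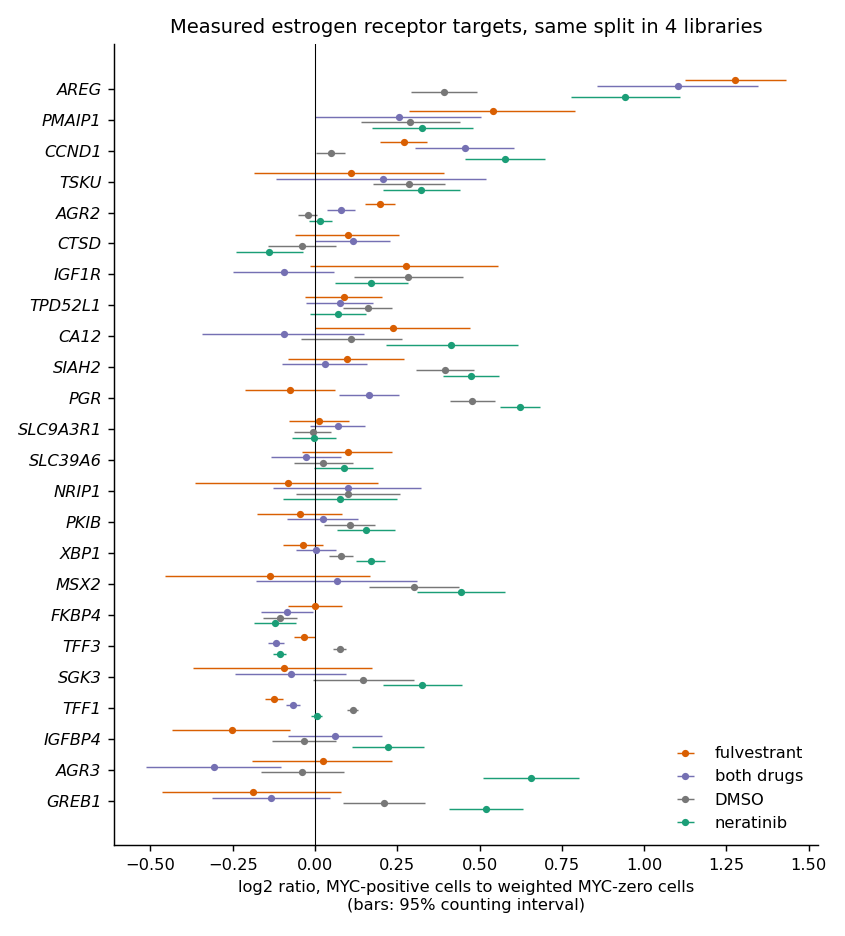
Log2 ratio of MYC-positive to weighted MYC-zero cells (horizontal axis) for the 24 measured estrogen receptor targets in each of the 4 libraries, with 95% counting intervals as bars. PGR lies at -0.07 with fulvestrant and 0.17 with both drugs but at 0.48 in DMSO and 0.62 with neratinib, while AREG is to the right of 0 in all 4.

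Growth factor signalling genes were among those with higher levels. Of 5 measured ERK output genes, which follow the ERK kinases downstream of HER2 and EGFR, 2 were higher with fulvestrant, PHLDA2 and PLK2, and 4 with both drugs, with 0 lower in either, beside 1.01% and 0.626% of all genes higher. The list median was 0.27 and 0.46, and all 5 genes were above 0 in both libraries. Without the 1% of cells described above, PHLDA2 was at 0.317 and PLK2 at 0.295 with fulvestrant, both under the threshold. With both drugs DUSP4, an ERK phosphatase, was at 0.40 [0.28, 0.52], the stress-response gene IER3 at 0.52 [0.41, 0.64], and CCND1 and PLK2 as given above. The neratinib cells gave a like median of 0.42 and DMSO cells 0.05. Levels under neratinib were low, CCND1 being at 39.1 CPM in members with both drugs and 287 CPM in fulvestrant members.

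Of 12 measured immediate early genes 5 were higher with fulvestrant (1.01% of all genes) and 0 lower, with a median of 0.20: EGR1, KLF6 at 0.43 [0.35, 0.51], IER5 at 0.41 [0.21, 0.61], JUNB at 0.36 [0.25, 0.47] and FOS at 0.32 [0.15, 0.50]. Without the 1% of cells described above, EGR1 was at 0.15 [0.01, 0.29] with fulvestrant, under the threshold. With both drugs 1 was higher (0.626% of all genes), EGR1, with a median of 0.09. FOS stood at 2.45 CPM there in members and 49.8 CPM in fulvestrant members, so that its ratio of 0.24 [-0.39, 0.83] with both drugs has a wide interval.

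The ATF4 list holds genes of the amino acid and unfolded protein stress response. Of 18 measured, 4 were higher with fulvestrant and 6 with both drugs, beside 1.01% and 0.626% of all genes, 0 were lower in either, and the medians were 0.19 and 0.21. DDIT3 and SLC7A5 were higher in both, SLC3A2 and DDIT4 with fulvestrant, and TRIB3, CEBPB, CEBPG and ASNS with both drugs. SLC3A2, the partner chain of the SLC7A5 transporter, was at 0.48 [0.40, 0.56] and 0.29 [0.22, 0.36]. TRIB3, a stress-induced pseudokinase, was at 0.27 [0.15, 0.40] and 0.66 [0.53, 0.78], and CEBPB, a transcription factor, at 0.31 [0.23, 0.39] and 0.62 [0.54, 0.70]. The asparagine synthetase ASNS was at 0.23 and 0.33, while the serine synthesis enzyme PHGDH, at 0.02 and 0.06, was near 0. Without the 1% of cells described above, the fulvestrant median of this list was 0.09 and that with both drugs 0.14.

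Genes that work with or under MYC differed little. Of 26 measured ribosome assembly genes and MYC-linked enzymes 0 were higher or lower with fulvestrant, and with both drugs 1 was higher, RRS1, a ribosome assembly factor, at 0.45 [0.12, 0.76]. Over all genes 0.626% were higher with both drugs. The median was 0.05 in both libraries. The nucleolar genes NCL and NPM1 were at -0.02 and 0.02 with fulvestrant, and ODC1, which makes polyamines, at -0.02. None of 7 measured genes of the MYC, MAX and MXD network was called in either library, and MAX, the partner of MYC on DNA, was at -0.12 [-0.32, 0.09] and -0.07 [-0.23, 0.10]. Small nucleolar RNA host genes, 6 in number, all lay above 0 in both libraries with medians of 0.23 and 0.17. Of these SNHG15 was at 0.28 [0.09, 0.47] and 0.45 [0.20, 0.70]. It alone passed the threshold in these 2 libraries, with both drugs, where 0.626% of all genes were higher. In the same split of DMSO and neratinib cells all 6 were above 0 too, with medians of 0.21 and 0.07. There 1 gene was higher in each, beside 0.222% and 0.808% of all genes.

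Most measured neighbours of MYC on the long arm of its chromosome were near 0. Of 13 measured 8q24 genes 0 were called with fulvestrant and 1 was higher with both drugs, where 0.626% of all genes were, TRIB1, a pseudokinase, at 0.34 [0.14, 0.54], with medians of 0.06 and 0.02. PVT1, the long noncoding RNA next to MYC, differed from them but averaged 7.54 CPM and was outside the counts. It was at 11.4 CPM in fulvestrant members and 6.27 CPM in MYC-zero cells, a ratio of 0.87 [0.48, 1.24], and with both drugs at 0.21 [-0.20, 0.61]. In DMSO and neratinib cells the PVT1 ratio was 0.58 and 0.57.

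**Figure D5:**
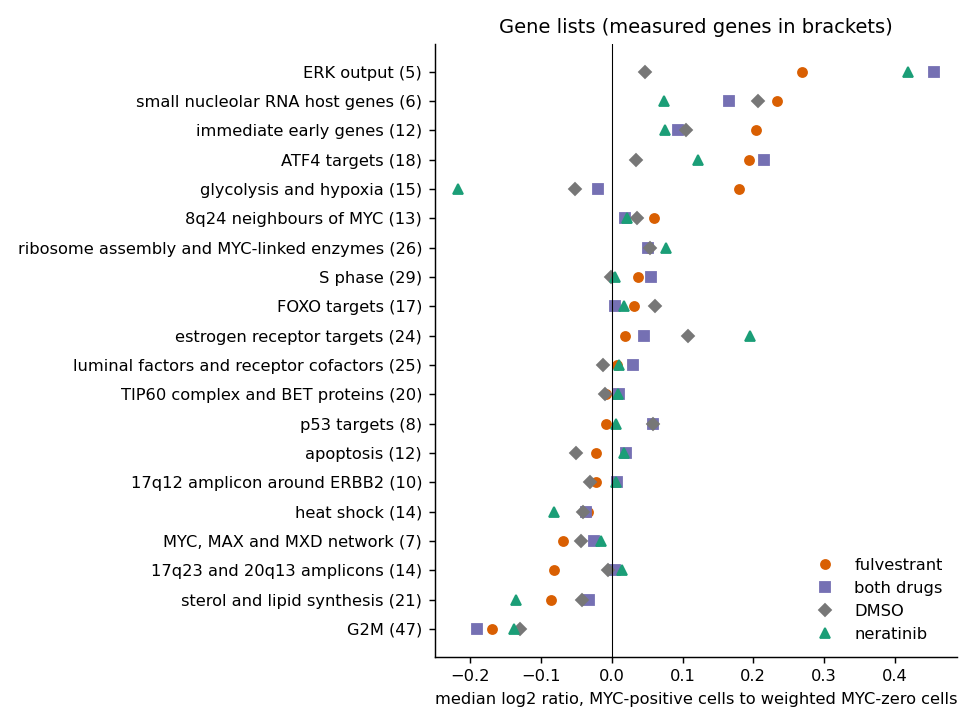
Median log2 ratio of MYC-positive to weighted MYC-zero cells (horizontal axis) over the measured genes of each list, 1 point per library, with the number of measured genes in brackets. ERK output lies at 0.27 and 0.46 in the fulvestrant and both-drug libraries, the ribosome assembly list at 0.05 in both, and G2M at -0.17 and -0.19.

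Mitotic genes were the lowest group, although phase was already allowed for. Of 47 measured G2M genes, from the list that also scored the phase, 4 were lower with fulvestrant, NEK2, CENPE, CDC20 and AURKB, and 15 with both drugs, beside 0.768% and 0.646% of all genes lower, 0 were higher, and the medians were -0.17 and -0.19. KIF20A, a mitotic kinesin, was at -0.51 [-0.85, -0.19] and -0.67 [-0.92, -0.44]. CENPE, a kinetochore motor, was at -0.35 [-0.56, -0.14] and -0.36 [-0.52, -0.20], and the centrosome kinase NEK2 at -0.38 [-0.68, -0.10] and -0.36 [-0.55, -0.17]. With both drugs CENPF was at -0.47, HMMR at -0.47, ASPM at -0.45 and the nuclear import gene KPNA2 at -0.68, where the fulvestrant values were -0.24, -0.19, -0.21 and -0.12. DMSO and neratinib cells gave medians of -0.13 and -0.14, and 2 of the 47 genes passed the threshold in DMSO, CDC20 and BIRC5, and 0 with neratinib. Over all genes 0.222% were lower in DMSO and 0.444% with neratinib. Of the 47 genes, 4 lay above 0 with fulvestrant, 2 with both drugs, 5 in DMSO and 1 with neratinib.

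Lower values were not limited to cells scored as G2M. In G2M KIF20A was at -0.38 [-0.75, -0.02] with fulvestrant and -0.70 [-0.97, -0.44] with both drugs, and CENPE at -0.32 [-0.55, -0.10] and -0.46 [-0.63, -0.28]. In S phase cells with fulvestrant KIF20A was at -1.26 [-2.25, -0.42], CENPE at -0.89 [-1.65, -0.21], HMMR at -0.64 [-1.14, -0.18] and CENPF at -0.56 [-0.78, -0.35], while with both drugs the S phase intervals of these 4 genes held 0. In G1 cells with both drugs CENPF was at -0.78 [-1.13, -0.45], NEK2 at -1.91 [-4.22, -0.31] and ASPM at -0.44 [-0.86, -0.05]. Also in G1, where mitotic transcripts are few, CENPE was at 0.33 [-0.81, 1.32] and 0.55 [-0.13, 1.18], the list median was 0.13 with fulvestrant and -0.03 with both drugs, and NEK2 was at 0.43 [-0.99, 1.62] with fulvestrant. The S phase list was near 0, with medians of 0.04 and 0.06. Of its 29 genes 0 were called with fulvestrant and 1 was higher with both drugs, RRM2 at 0.35, where 0.626% of all genes were.

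The genes with higher levels were split unevenly by phase with fulvestrant. AREG was at 2.01 [1.80, 2.22] in G1, 0.92 [0.64, 1.19] in S and 0.31 [-0.13, 0.72] in G2M. DKK1 was at 2.09 [1.89, 2.30], 0.11 [-0.25, 0.46] and 0.82 [0.48, 1.15], and DDIT3 at 1.67 [1.50, 1.84], 0.07 [-0.23, 0.36] and 0.15 [-0.16, 0.44]. With both drugs AREG was at 1.06, 0.98 and 1.38 in G1, S and G2M, DKK1 at 0.59, 0.71 and 0.89, and DDIT3 at 1.01, 0.61 and 0.68. The fulvestrant ratios of these 3 genes were thus highest in G1, where most of the extreme cells were also found, and with both drugs AREG and DKK1 were as high in the other phases. ANXA1 with fulvestrant was at 1.20 [1.04, 1.37] in G1 and 0.22 [-0.04, 0.48] in S, but lower in G2M members, at -0.51 [-0.84, -0.20]. With both drugs ANXA1 was at 0.53, 0.44 and 0.33 in G1, S and G2M.

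Secretory genes of the breast were lower, MUCL1 under more alternatives than SCGB2A2. MUCL1, a small mucin, was at 266 CPM in fulvestrant members and 405 CPM in weighted MYC-zero cells, a ratio of -0.61 [-0.68, -0.54], and at 301 against 544 CPM with both drugs, a ratio of -0.85 [-0.90, -0.80]. SCGB2A2, mammaglobin, was at -0.33 [-0.51, -0.15] and -0.34 [-0.47, -0.21]. The 5 highest members held 47.9% and 48.4% of SCGB2A2 UMIs and 27.8% and 22.4% of MUCL1 UMIs. In cells with 1 MYC UMI of the fulvestrant library MUCL1 was at 0.20 [0.17, 0.24], above the MYC-zero cells, so MUCL1 did not go down steadily with the number of MYC UMIs. Of 16 alternative settings, MUCL1 stayed lower past the threshold under 16 with both drugs and 15 with fulvestrant, and SCGB2A2 under 5 and 6.

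Identity and amplicon genes differed little between MYC-positive and MYC-zero cells. ERBB2 was at 993 against 1003 CPM with fulvestrant and 896 against 879 CPM with both drugs, ratios of -0.01 [-0.05, 0.02] and 0.03 [-0.00, 0.06]. None of 10 genes around ERBB2 on 17q12, none of 25 luminal factors and receptor cofactors, none of 14 heat shock genes, none of 21 sterol and lipid genes and none of 20 genes of the TIP60 complex and BET proteins was called in either library. Of 14 genes of the 17q23 and 20q13 amplicons 0 were called with fulvestrant, with a median of -0.08, and 1 was lower with both drugs, with a median of 0.00: the mitotic kinase AURKA, also on the G2M list, at -0.44 [-0.50, -0.37]. Over all genes 0.646% were lower with both drugs. With an interval off 0 but a ratio under the threshold, ELF3, an epithelial transcription factor, was at 0.23 [0.15, 0.31] and 0.10 [0.04, 0.16]. BRD8, a bromodomain subunit of TIP60 that the series is about, was at -0.22 [-0.50, 0.05] and -0.20 [-0.33, -0.07]. FOXO targets had 3 higher of 17 with fulvestrant, CREBRF at 0.55, TNFSF10 at 0.45 and CITED2 at 0.45, and 1 lower, CALCOCO1 at -0.57, with 0 called with both drugs. Over all genes 1.01% were higher and 0.768% lower with fulvestrant.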

How the data were processed

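The authors deposited 1 unfiltered matrix of whole-number UMI counts for 33538 genes over 4 libraries, made, per the submitters' processing notes, by Cell Ranger 3.1.0. Barcodes were assigned by the number that ends them, matched to the number each sample title starts with. The notes name the build hg19 and no coordinates are printed. The reference name table held 33113 of the identifiers, and 48 genes that share a symbol were kept apart by identifier. No label says whether read depth was evened between libraries. The kept cells held 82749213 UMIs with fulvestrant and 90314413 with both drugs, and the members 6641297 and 11443418.

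Phases were scored with scanpy 1.11.5, with numpy 2.4.6, scipy 1.17.1 and pandas 2.3.3 for the rest. Expected UMIs came from MYC-zero cells weighted over 30 depth and phase strata. Intervals are the exact conditional binomial of 2 Poisson counts, exact Poisson for levels and Clopper-Pearson for shares. The procedure was tested on simulated data. No doublet caller was run and doublets were kept. As a measure of very deep cells, 2.86% of fulvestrant members and 0.968% of MYC-zero cells held over double the median UMIs, and 2.70% and 2.32% with both drugs.

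Members and the 25 gene lists were chosen with earlier results of these data known. Named genes are 14 always named, the 8 highest and 8 lowest pooled ratios above 20 CPM with the same sign in both libraries, and up to 4 per list, beside genes called in both libraries, of which 1 is not reported here. List members with calls, NMB, ATF3 and CYP1A1 were added after their values were seen. Alternatives numbered 11 planned and 5 added after seeing the data.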

Additional observations from a re-analysis of the deposited data

Results flagged for a closer look

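TFF1 was marked because its ratio between MYC-positive and MYC-zero cells had opposite signs in the fulvestrant and DMSO libraries. It was at -0.12 in the fulvestrant library and at 0.11 in the DMSO library, on the log2 scale. With both drugs it was at -0.07 and with neratinib at 0.005, near 0. Each group was 1 library, so the difference was not tested. When cells were thinned to 10000 UMIs, the fulvestrant value was -0.63 [-0.74, -0.53], past the threshold. With the most extreme 1% of cells left out, the fulvestrant value was -0.09, and TFF1 in those cells was 599 CPM against 1953 CPM in the others.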

How the results depend on the processing

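Of 992 values of single genes under 16 alternatives, 889 stayed on the same side of the threshold, 24 of them under it with the other sign (IGF1R at -0.86 and TSKU at -0.60 with fulvestrant when thinned, for instance), 77 no longer passed it, 16 passed it newly and 10, which had passed it, changed sign; for counts and list medians 244 of 292 stayed alike, 47 moved and 1 reversed, and no cause was tested. With no allowance for depth or phase, 60 genes were higher with both drugs and 9 lower in both libraries. With depth bins only, 125 and 54 genes were lower with fulvestrant and both drugs and 45 in both, and the G2M medians were -0.49 and -0.35. With MYC thresholds of 1 UMI in fulvestrant and 2 with both drugs, 10 genes were higher and 1 lower with fulvestrant, 151 and 142 with both drugs, and 7 and 0 in both libraries, with 915 and 78 members. ERK output medians were then 0.15 and 0.73, ATF4 medians 0.073 and 0.43, the immediate early median 0.22 with both drugs, and SCGB2A2 (0.33) and MUCL1 (0.022) reversed with fulvestrant. At no more than 20% mitochondrial UMIs, which left 173 both-drug members, 81 genes were higher and 86 lower there and the ATF4 median was 0.36. Thinning to 10000 UMIs, with 61 and 195 members, gave 190 higher and 106 lower genes with fulvestrant, 103 and 72 with both drugs and 19 higher in both. The fulvestrant medians were then 0.49 for ERK output, 0.59 for immediate early genes and 0.079 for ATF4 targets, NEK2 with fulvestrant (0.40) and SCGB2A2 with both drugs (0.39) reversed, and members were 1.88% and 5.36% of cells. A minimum of 5 CPM gave 204 higher and 145 lower genes with fulvestrant, 163 and 120 with both drugs and 36 higher in both, among 9166 genes. In G1 cells only (added after seeing the data), 177 genes were higher and 129 lower with fulvestrant, 104 higher with both drugs and 28 higher in both. The both-drug medians were 0.23 for immediate early genes, 0.11 for ATF4 targets and -0.035 for G2M, the fulvestrant G2M median reversed to 0.13, as did NEK2 (0.43) and CENPE (0.33) with fulvestrant and CENPE (0.55) and SCGB2A2 (0.31) with both drugs. Without the deepest 5% of cells, 3 genes were lower in both libraries and SCGB2A2 was 0.028 with both drugs. Without the 1% of cells highest in each gene, SCGB2A2 was 0.032 with fulvestrant. Without the 1% of cells highest in the other library's genes, 28 genes were higher with fulvestrant and 5 in both, and the fulvestrant ATF4 median was 0.094. AREG and CCND1 in both libraries, and DKK1 in both, stayed on the same side under all 16. Depth limits the split itself, since MYC-zero cells can hold MYC that was not captured. Fulvestrant cells with 1 MYC UMI lay between the 2 sides for AREG, DKK1 and DDIT3, but above both for MUCL1. No paired analysis was possible because each group was 1 library and the labels give no replicate numbers.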

Other observations

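Other genes also differed between MYC-positive and MYC-zero cells. VIM, the intermediate filament vimentin, was the 1 measured gene of the basal and mesenchymal list. It was called higher with fulvestrant, where 1.01% of all genes were. There VIM was at 65.2 against 37.6 CPM, a log2 ratio of 0.79 [0.64, 0.95], out of 77.1 CPM for that list in members. With both drugs it was at 58.6 against 51.3 CPM, a ratio of 0.19 [0.07, 0.31]. The 5 highest members held 32.8% of VIM UMIs with fulvestrant. ATF3, below 20 CPM on average and named after its values were seen, was at 24.1 against 5.79 CPM with fulvestrant, a ratio of 2.06 [1.74, 2.37], and at 7.52 against 4.56 CPM with both drugs, a ratio of 0.72 [0.35, 1.08]. The 5 highest members held 48.8% of ATF3 UMIs with fulvestrant.

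Few glycolysis and hypoxia genes passed the threshold. All 15 measured genes were above 0 with fulvestrant, with a median of 0.18 and 1 called higher, NDRG1, at 0.42 [0.17, 0.67], where 1.01% of all genes were higher. With both drugs 4 of 15 were above 0 with a median of -0.02, in DMSO 3 with -0.05, and 0 were called in either. With neratinib 1 was above 0, the median was -0.22 and 3 were lower, BNIP3, PGK1 and LDHA, where 0.444% of all genes were lower. The differences between libraries were not tested.

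CYP1A1, a target of the aryl hydrocarbon receptor at 14.0 CPM on average, was at 0.54 [0.25, 0.81] with fulvestrant and 0.45 [0.22, 0.67] with both drugs, but at -0.37 [-0.58, -0.16] in DMSO and -0.52 [-0.74, -0.29] with neratinib. It too was named after its values were seen, and the 5 highest members held 33.3% and 40.2% of its UMIs in the fulvestrant libraries. Without the extreme cells and without weighting, the 434 both-drug members left were at 12.8 CPM [10.7, 15.0] of CYP1A1, not above the 14.5 CPM of MYC-zero cells. The 235 fulvestrant members left were at 19.9 CPM [16.6, 23.7] against 14.4 CPM. HSPA5, an endoplasmic reticulum chaperone, had 299 UMIs in 1 member with both drugs, where the 5 highest members held 20.2% of the total.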
